A study of Mus musculus with 22 samples.

Results

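Chemokine receptors are G protein-coupled receptors on the surface of leukocytes. Each binds 1 or more chemokines, small secreted proteins, and signals through Gi proteins to steer cells along a chemokine gradient. Ccr2 carries monocytes from blood into inflamed tissue, including the fat of obese animals, and Ccr7 carries T cells and mature dendritic cells into lymph nodes. The rows of 8 receptors in the gene count table were taken by symbol: Ccr1, Ccr2, Ccr3, Ccr7, Cx3cr1, Cxcr3, Cxcr4 and Cxcr6, 8 of 23420 gene symbols. No measured value entered this rule, but earlier results of these data were known when the receptors were chosen.

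The libraries came from inguinal white adipose tissue (IWAT) of 11 wildtype C57Bl/6 female mice, which carried no transgene or deletion. Lean mice (n = 5) received chow and obese mice (n = 6) a high-fat diet (HFD) for 16 weeks. At about 20 weeks of age, E0771 cells, a mouse breast cancer line derived from the same strain, were injected in PBS with Matrigel into the left pad, and PBS with Matrigel alone into the right pad. Both pads were collected 2 weeks later and gave tumor-associated and control IWAT of the same animal, so that both controls were injected pads of tumor-bearing mice. The inguinal lymph node and the tumor with its border were cut away before RNA was made, and the tissue is a mixture of adipocytes, vessels, stroma and leukocytes. Mice are called by the numbers in their labels, 0, 2, 3, 6 and 9 for lean and 0, 1, 2, 3, 4 and 8 for obese mice.

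All 8 receptors passed the filter on low counts, which kept 14458 genes. Each library held between 5759775 and 8598108 counts on genes. Levels are given as CPM, the counts scaled to a common library total after TMM normalization, and differences as log2 fold changes with their standard error (SE) from edgeR's quasi-likelihood test over all 22 libraries. Genes with a Benjamini-Hochberg adjusted p under 0.05, over all 14458, are spoken of as called. The median log2 fold change of all genes lay between -0.043 and 0.04 in the 5 comparisons.

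Adipocyte markers (Adipoq, Plin1, Cidec, Lep and Cfd) were present in every library, with sums from 824.9 CPM in obese tumor-associated mouse 4 to 12440 CPM. Obese control mice 1 and 3 stood apart from the other libraries. Their 5 B cell markers (Cd79a, Cd79b, Ms4a1, Pax5 and Cr2) summed to 532.2 and 467.8 CPM, against 2.15 to 10.8 CPM in the other 4 obese control libraries. Their 8 T cell markers summed to 297.3 and 299.0 CPM, against 7.88 to 12.0 CPM in those 4. Obese tumor-associated mouse 3 at 124.4 CPM and lean control mouse 2 at 46.7 CPM were the only others above 40 CPM of B cell markers. Obese control mouse 1 also held 1907 CPM of 4 skeletal muscle markers, against at most 183 CPM in any other library. Comparisons of the receptors that rest on obese control mice 1 and 3 are given with and without them.

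Promoters are shown for a pair of receptors that rose together in obese mice, Ccr1 and Ccr2, and for Cxcr4, whose upstream sequence differs most from theirs. They run from 250 bases before to 50 bases after the start site in RefSeq (GRCm38.p6), which held 7 of the 8 receptors, Ccr7 being the one without an entry. Ccr1 lies at chr9:123968643-123968942 on the minus strand, Ccr2 at chr9:124101933-124102232 on the plus strand and Cxcr4 at chr1:128592250-128592549 on the minus strand. Capitals mark GAGGAA (the core bound by the myeloid factor PU.1), TATAAA (the TATA box) and CCGCCC (the GC box), searched on both strands.
Ccr1: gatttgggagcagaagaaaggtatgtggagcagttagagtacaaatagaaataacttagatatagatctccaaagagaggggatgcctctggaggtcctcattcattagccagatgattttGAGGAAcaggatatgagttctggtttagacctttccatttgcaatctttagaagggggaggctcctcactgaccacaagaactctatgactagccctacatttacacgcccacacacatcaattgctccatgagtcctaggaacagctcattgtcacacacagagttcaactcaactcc
Ccr2: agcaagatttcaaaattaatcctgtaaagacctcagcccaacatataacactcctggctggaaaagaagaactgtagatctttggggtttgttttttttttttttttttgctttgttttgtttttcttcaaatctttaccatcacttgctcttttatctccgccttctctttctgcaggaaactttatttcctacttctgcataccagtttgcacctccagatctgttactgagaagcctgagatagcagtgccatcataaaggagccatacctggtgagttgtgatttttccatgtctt
Cxcr4: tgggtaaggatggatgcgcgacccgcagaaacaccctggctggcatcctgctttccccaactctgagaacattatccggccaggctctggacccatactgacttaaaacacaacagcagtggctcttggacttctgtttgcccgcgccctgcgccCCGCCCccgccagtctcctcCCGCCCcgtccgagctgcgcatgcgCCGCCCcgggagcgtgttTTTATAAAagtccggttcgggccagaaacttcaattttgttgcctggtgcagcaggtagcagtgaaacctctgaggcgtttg

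The Ccr1 window held 1 GAGGAA, as did those of Ccr3 and Cxcr3, and 28.3% of all 32851 promoters of this length held at least 1. The Ccr2 window held none of the motifs searched. The Cxcr4 window held 3 GC boxes, where 35.7% of promoters held at least 1. It also held 2 overlapping matches of the TATA box on opposite strands, where 13.6% of promoters held at least 1 match. The Cxcr4 window had 20 CpG dinucleotides and 59.3% G or C, whereas the Ccr1 and Ccr2 windows each had 1 CpG and 44% and 38% G or C. These matches are descriptions of sequence and were not tied to any change in expression.

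Of the receptor genes, 4 are neighbours. In GENCODE M21 (GRCm38, the same assembly as mm10), Cxcr6 (ENSMUSG00000048521.8), Ccr1 (ENSMUSG00000025804.5), Ccr3 (ENSMUSG00000035448.9) and Ccr2 (ENSMUSG00000049103.14) lie in this order within chr9:123806475-124113557. All are protein-coding. Cxcr6 sits inside Fyco1, which is on the other strand and shares no exon base with it. Cx3cr1 (ENSMUSG00000052336.7) is on the same chromosome at chr9:119901616-120069879, a span that is long because of an extended transcript and that shares 78 exon bases with the antisense gene Gm33858. As the strand setting of the counting is not given in the sources used here, reads in those bases could be either gene's. Ccr7 (ENSMUSG00000037944.8) is at chr11:99144196-99155077, Cxcr3 (ENSMUSG00000050232.6) at chrX:101731535-101734269 and Cxcr4 (ENSMUSG00000045382.6) at chr1:128588199-128592293.

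Ccr2 and Cxcr4 were the most abundant of the 8 in lean mice when CPM were divided by the exon length of the gene in kilobases. The exon lengths were those of GENCODE M21, whereas the annotation used for counting is not given in the sources used here. Ccr2 has 6760 exon bases in GENCODE M21 and ends at 124113557, against 124109140 in RefSeq. The order between receptors rests on these lengths and was not tried with others. In lean control IWAT, the mean was 12.7 CPM per kb for Ccr2 (SD 3.95, n = 5), 8.60 for Cxcr4 (SD 2.78) and 3.00 for Ccr1 (SD 1.03). Cxcr3, Cxcr6, Cx3cr1 and Ccr7 followed between 1.94 and 0.938 CPM per kb, and Ccr3 was last at 0.427 CPM per kb (SD 0.229). The ranges over mice overlapped between all neighbours in this order except Cxcr4 and Ccr1. In lean tumor-associated IWAT the order was led by Ccr2 at 13.2 CPM per kb (SD 2.80), Cxcr4 at 9.75 (SD 2.54), Ccr1 at 8.05 (SD 4.21) and Ccr7 at 3.02 (SD 1.65), and each of these overlapped the next. In obese tumor-associated IWAT, Ccr2 at 26.5 CPM per kb (SD 9.08, n = 6) and Ccr1 at 20.2 (SD 6.78) came before Cxcr4 at 12.1 (SD 4.86). The ranges of Ccr2 and Ccr1 overlapped there. In obese control IWAT, Cxcr4 at 20.8 (SD 15.3) and Ccr7 at 9.99 CPM per kb (SD 13.8) headed the order with SDs near or above their means. Without mice 1 and 3, Cxcr4 was at 11.04 (SD 3.46, n = 4), followed by Ccr2 at 5.45 (SD 0.659) and Ccr1 at 3.31 (SD 0.968), and Ccr7 was the fifth at 1.09 CPM per kb (SD 0.0954). The ranges of these first 3 receptors did not overlap there.

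**Figure D1:**
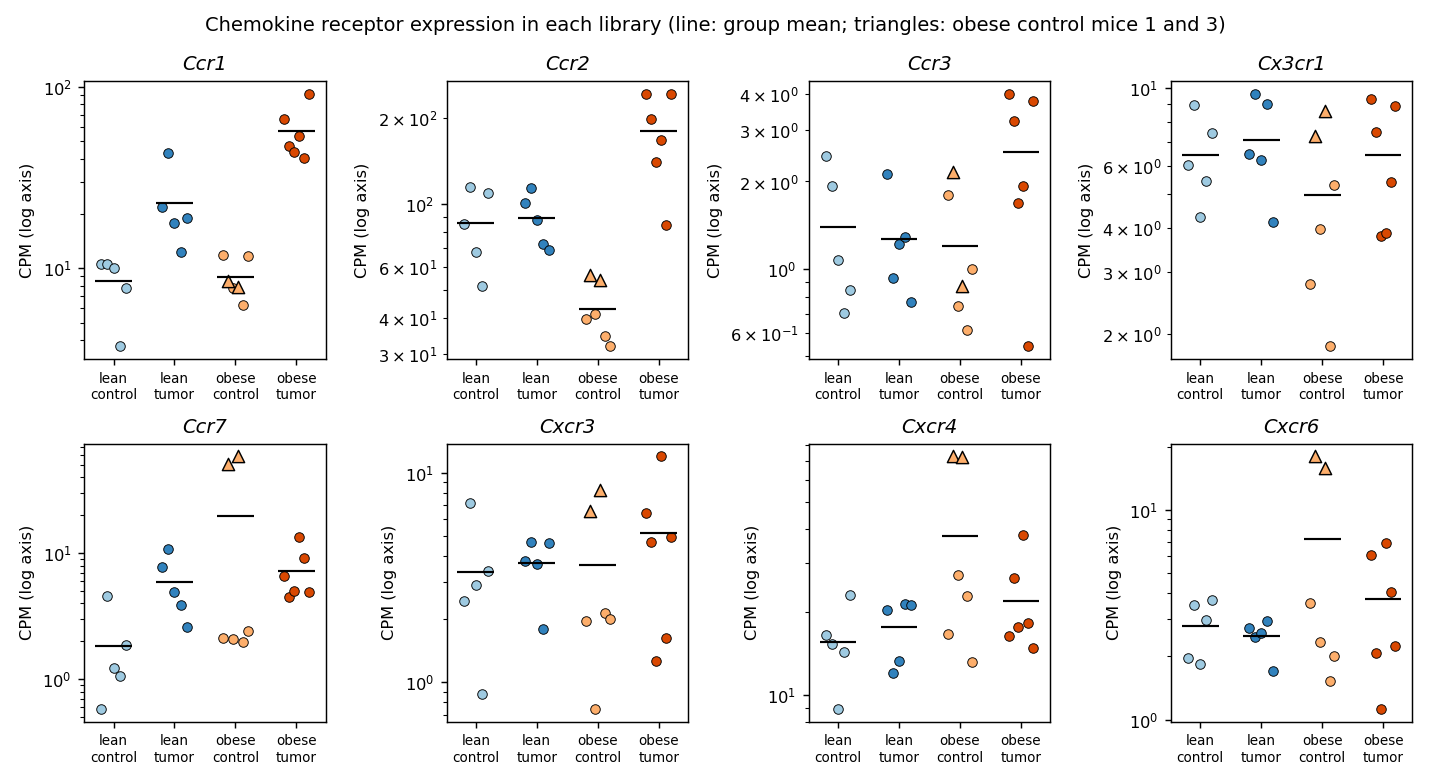
CPM of the 8 receptors in each of 22 libraries (log axis, one panel per gene, points per mouse), grouped as lean control, lean tumor-associated, obese control and obese tumor-associated IWAT, with the group mean as a line and obese control mice 1 and 3 as triangles. Ccr1 and Ccr2 in obese tumor-associated IWAT lie above every obese control library, and the triangles lie above the other obese control libraries for Ccr7, Cxcr3, Cxcr4 and Cxcr6.

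The first comparison asked how a tumor in the pad alters the receptors in lean mice. Ccr1 was the only one of 8 called, and it rose 2.66-fold. Over all genes, 4.18% were called in this comparison. The groups did not overlap for Ccr1 alone of the 8, against 8.36% of all genes.

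Ccr1 encodes a receptor for Ccl3, Ccl5, Ccl6, Ccl7 and Ccl9 on monocytes, macrophages and neutrophils. In lean control IWAT it was at 10.6, 10.5, 9.95, 3.70 and 7.80 CPM in mice 0, 2, 3, 6 and 9. In the tumor-associated pads of these mice it was at 21.8, 43.2, 17.8, 12.2 and 19.0 CPM. Every tumor-associated library was above every control library. The log2 fold change was 1.41 (SE 0.32, edgeR adjusted p = 0.0153). Without tumor-associated mouse 2, the highest, it was 1.03 with an adjusted p of 0.0857. As in all results here, more cells carrying the receptor and more of its RNA per cell cannot be told apart in bulk tissue.

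Ccr2, the receptor for Ccl2, Ccl7 and Ccl12, did not follow Ccr1 in lean mice. It was at 84.9, 114.6, 67.7, 51.7 and 109 CPM in the control pads and at 101, 113.9, 87.9, 72.6 and 69.2 CPM in the tumor-associated pads, in the same order of mice. The values interleave, and the log2 fold change was 0.055 (SE 0.26, 95% interval -0.477 to 0.587, edgeR adjusted p = 0.989). On the linear scale this interval runs from 0.718-fold to 1.5-fold. Meanwhile, the macrophage markers (6 genes, summed) rose from 590.1 to 1269 CPM in lean control to 1329 to 2846 CPM in lean tumor-associated libraries, with 5 of the 6 genes called higher. The ratio of Ccr2 counts to counts of Emr1, which encodes the macrophage surface protein F4/80, went from 0.987 to 1.55 with a median of 1.33 in lean control to 0.521 to 0.615 with a median of 0.576 in lean tumor-associated IWAT. These ratios of Ccr2 do not overlap between the groups. Ccr1 counts per Emr1 count were 0.0705 to 0.1865 with a median of 0.1415 in lean control IWAT. In lean tumor-associated IWAT they were 0.1036 to 0.2163 with a median of 0.1304, which overlaps. All ratios are given without a test.

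Ccr7 was higher in the tumor-associated pad of 5 of 5 lean mice but was not called. It was at 0.581, 4.55, 1.23, 1.06 and 1.87 CPM in control and at 7.73, 10.7, 4.89, 3.86 and 2.63 CPM in tumor-associated IWAT of mice 0, 2, 3, 6 and 9. The groups overlap through control mouse 2, which is also the lean library with the most B cell marker RNA. Its log2 fold change was 1.71 with an SE of 0.94 (edgeR adjusted p = 0.407). This SE comes from a spread shared by all 4 groups, obese control mice 1 and 3 included. Without these 2 libraries the log2 fold change was 1.69, the SE 0.47 and the adjusted p 0.0480, so that Ccr7 was called and the count became 2 of 8, against 4.53% of all genes.

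The other 5 receptors were not called in lean mice, and their fold changes lay close to 0. Cxcr4 had a log2 fold change of 0.18 (SE 0.42), Cx3cr1 0.15 (SE 0.36) and Cxcr3 0.15 (SE 0.62). Ccr3 was at -0.16 (SE 0.48) and Cxcr6 at -0.16 (SE 0.63). Adjusted p for these ranged from 0.962 to 0.986. The intervals of Cxcr3 and Cxcr6 reach from below 0.5-fold to above 2-fold, and changes of that size were not detectable here.

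The same comparison in obese mice called 3 of 8 receptors, all higher: Ccr1 6.39-fold, Ccr2 4.16-fold and Ccr3 2.11-fold. In this comparison 26.8% of all genes were called higher and 54.5% in either direction, so 3 of 8 is near the background. The groups did not overlap for Ccr1 and Ccr2, and 19.6% of all genes were so separated.

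In obese mice, Ccr1 ranged from 6.29 to 11.8 CPM in control IWAT, with a median of 8.17, and from 40.5 to 91.7 CPM in tumor-associated IWAT, with a median of 50.6. The groups were far apart. The log2 fold change was 2.68 (SE 0.30, edgeR adjusted p = 2.41e-06). Within each mouse the tumor-associated minus control difference in log2 CPM was 2.45 to 2.95, a narrow spread (mean 2.61, SD 0.201, n = 6 mice).

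Ccr2 ranged from 31.8 to 56.5 CPM in obese control IWAT, with a median of 40.5, and from 84.6 to 242 CPM in obese tumor-associated IWAT, with a median of 183. Its log2 fold change was 2.06 (SE 0.24, edgeR adjusted p = 4.59e-06), and without obese control mice 1 and 3 it was 2.27. Tumor-associated mouse 4 had the lowest Ccr2. The same library had the lowest sums of the group for macrophage (1215 CPM) and monocyte markers (222.6 CPM) as well as for adipocyte markers. Over the obese tumor-associated libraries the macrophage sum reached 3881 CPM, against 921.5 to 1338 CPM in obese control, and all 6 macrophage markers were called higher. The 5 adipocyte markers summed to 6693 to 12440 CPM in obese control and to 824.9 to 5263 CPM in obese tumor-associated IWAT, without overlap, and 4 of them were called lower. Ccr2 counts per Emr1 count were 0.286 to 0.735 in obese control and 0.464 to 0.862 in obese tumor-associated IWAT, with overlap. Ccr1 counts per Emr1 count were 0.066 to 0.107 in obese control and 0.113 to 0.306 in obese tumor-associated IWAT, without overlap. The part of the marker sums in the receptor values was not tested.

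Ccr3, a receptor for Ccl11, Ccl24 and Ccl5 that is best known on eosinophils, was scarce. Its counts per library ran from 4 to 27. It was at 0.614 to 2.16 CPM in obese control and at 0.541 to 4.01 CPM in obese tumor-associated IWAT, and the groups overlap. Of 4 eosinophil markers, Epx was at 0 in every library, and the sum reached 7.04 CPM, in obese control mouse 1. The log2 fold change of Ccr3 was 1.08 (SE 0.43, edgeR adjusted p = 0.0394). The call was lost in 7 of 22 fits that each left out 1 library (obese control 2, 3, 4 or 8, or obese tumor-associated 0, 1 or 8), where the adjusted p ran up to 0.0983. It was also lost with the mouse as a random block in limma-voom (adjusted p = 0.0649), with the groups fitted alone (0.0712), without a low-count filter (0.0507) and without both pads of mice 1 and 3 (0.0592).

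Cx3cr1, the receptor for the membrane-bound chemokine Cx3cl1 on patrolling monocytes and resident macrophages, had a log2 fold change of 0.37 (SE 0.33, edgeR adjusted p = 0.357) in obese mice. Its obese control values ran from 1.84 to 8.62 CPM, with mice 1 and 3 at the top, and its tumor-associated values from 3.79 to 9.30 CPM. Without mice 1 and 3 it was called, with a log2 fold change of 0.87 (adjusted p = 0.0355). With all libraries its ligand Cx3cl1 fell by 1.03 on the log2 scale in obese mice (SE 0.37, edgeR adjusted p = 0.0232). Without mice 1 and 3 the log2 fold change of Cx3cl1 was -1.32 (SE 0.38, adjusted p = 0.00736).

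Ccr7, Cxcr4, Cxcr6 and Cxcr3 were the receptors that differed most between obese control mice 1 and 3 and the other 4 obese control libraries. Ccr7, the receptor for Ccl19 and Ccl21 that guides cells to lymph nodes, was at 51.0 and 58.9 CPM in these 2 libraries and at 2.00 to 2.44 CPM in the other 4. Cxcr4, the receptor for Cxcl12, was at 73.0 and 72.7 CPM against 13.2 to 27.2 CPM. Cxcr6, the Cxcl16 receptor found on effector and tissue-resident T cells, was at 18.0 and 15.9 CPM against 1.54 to 3.59 CPM. Cxcr3, the receptor of activated T cells for Cxcl9 and Cxcl10, was at 6.61 and 8.25 CPM against 0.744 to 2.15 CPM. The ratio of the 2 means was 25.4 for Ccr7, 7.13 for Cxcr6, 4.33 for Cxcr3 and 3.65 for Cxcr4, and it was 2.30 for Cx3cr1, 1.5 for Ccr2, 1.46 for Ccr3 and 0.873 for Ccr1. The values of these 2 libraries also lay above the other 4 for Ccr2 and for Cx3cr1. As these libraries were singled out after their marker sums were seen, the ratios are a description.

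**Figure D2:**
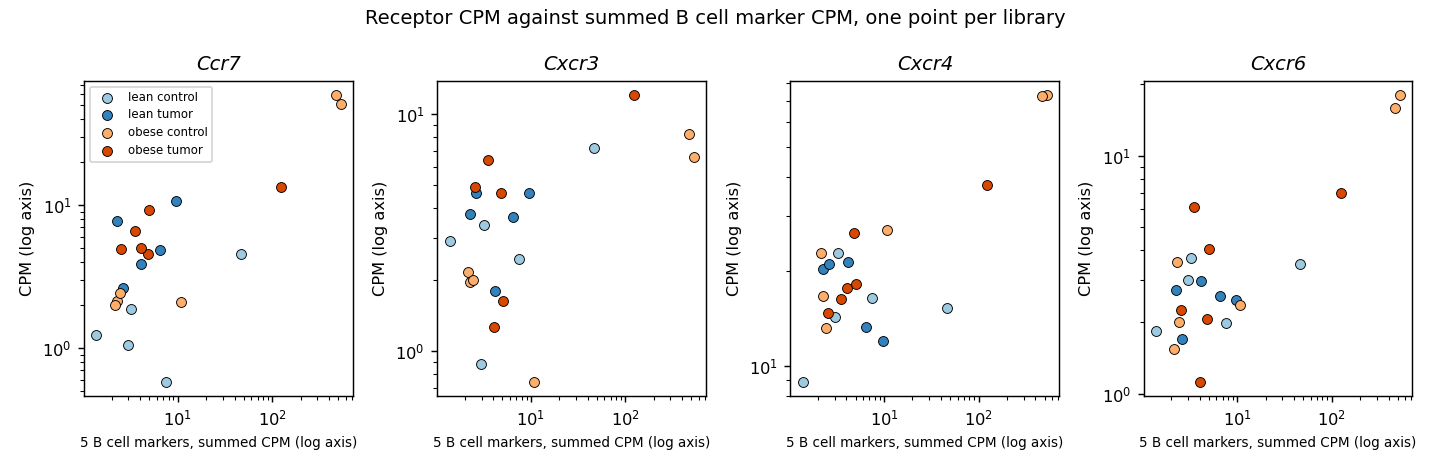
CPM of Ccr7, Cxcr3, Cxcr4 and Cxcr6 (vertical log axis) against the summed CPM of 5 B cell markers (horizontal log axis), one point per library in 4 group colors. Obese control mice 1 and 3, at 532.2 and 467.8 CPM of B cell markers, carry the highest Ccr7, Cxcr4 and Cxcr6, and obese tumor-associated mouse 3, at 124.4 CPM, the highest Cxcr3.

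With all libraries, none of these 4 receptors was called between the pads of obese mice. The log2 fold change was -1.44 for Ccr7 (SE 0.77, edgeR adjusted p = 0.116), -0.78 for Cxcr4 (SE 0.38, 0.0830), -0.94 for Cxcr6 (SE 0.54, 0.146) and 0.50 for Cxcr3 (SE 0.56, 0.462). Without obese control mice 1 and 3, Ccr7 changed direction and was called, at 1.73 (SE 0.49, adjusted p = 0.00634). Its 4 control libraries then ran from 2.00 to 2.44 CPM and its 6 tumor-associated libraries from 4.53 to 13.4 CPM. The libraries left out were the highest for Ccr7, and the share of all genes separated in this way was not computed. Cxcr3 was then called at 1.58 (SE 0.59, adjusted p = 0.0296). Cxcr4 was at 0.12 and Cxcr6 at 0.65, neither called. In total 6 of 8 receptors were then called, all higher, where 26.7% of all genes were called higher. Of these 6, Ccr7, Cxcr3, Ccr2 and Cx3cr1 were higher in both libraries left out than in the other 4 obese control libraries. For these receptors the removal by itself lowers the control level, so the count cannot be read against the share of all genes. The fit without obese control mice 1 and 3 kept the tumor-associated pads of these mice. Without both pads of these mice, Cxcr3 was at 1.035 (edgeR adjusted p = 0.132) and Ccr3 had an adjusted p of 0.0592, so neither was called. Without the 4 libraries above 40 CPM of B cell markers, Cxcr3 was at 1.13 and not called (adjusted p = 0.0635). With the mouse as a block and all libraries kept, Cxcr4 was called lower, at -0.56 (adjusted p = 0.0338). With the mouse as a random block in limma-voom it was at -0.54 and not called (adjusted p = 0.181).

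**Figure D3:**
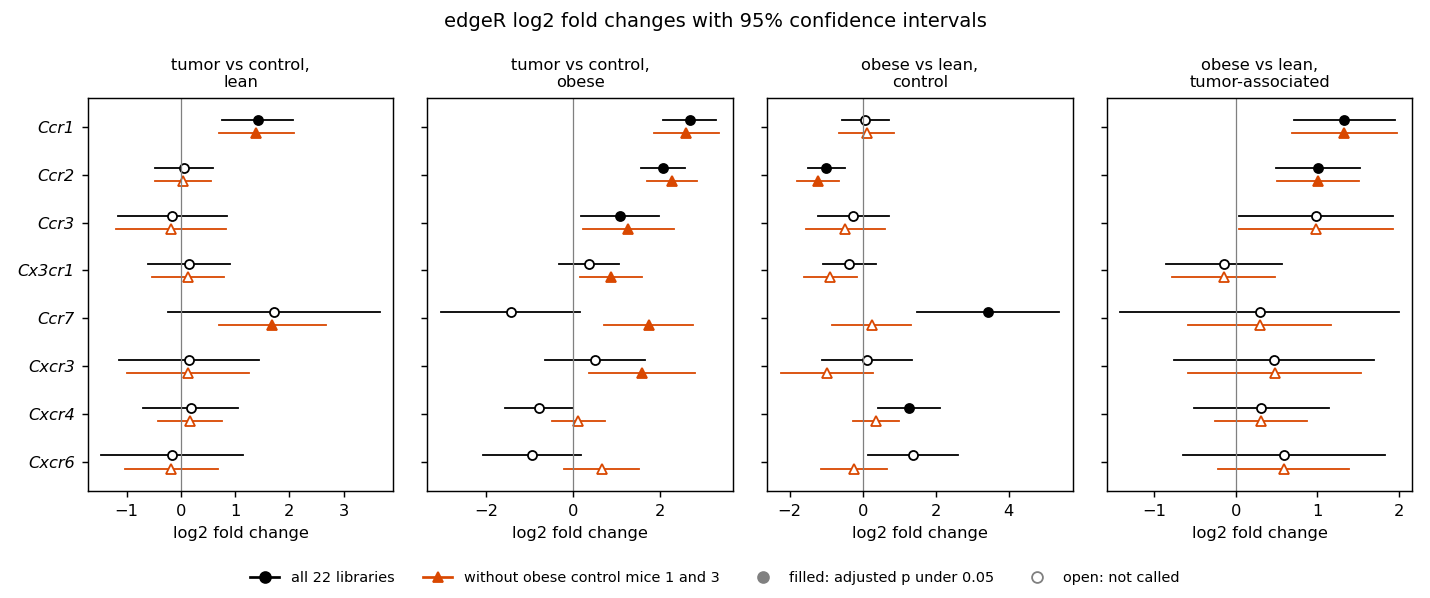
Log2 fold change of each receptor with its 95% confidence interval in 4 comparisons, from all 22 libraries (circles) and without obese control mice 1 and 3 (triangles), filled where the adjusted p is under 0.05. Ccr1 and Ccr2 are on the same side of the threshold in both fits in all 4 panels, whereas Ccr7 moves from -1.44 to 1.73 in obese tumor-associated against control IWAT and from 3.44 to 0.25 in obese against lean control IWAT.

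The comparison of obese with lean control IWAT asked how the diets differed in the pad without a tumor. As every control pad came from a tumor-bearing mouse, the diet and any effect of the distant tumor cannot be told apart. In all, 3 of 8 receptors were called, Ccr2 lower and Ccr7 and Cxcr4 higher, against 17.1% of all genes called. Ccr2 was 0.503-fold of its lean level, with a log2 fold change of -0.99 (SE 0.25, edgeR adjusted p = 0.00905). The obese values of 31.8 to 56.5 CPM overlap the lean values of 51.7 to 114.6 CPM only where obese mice 1 and 3 (56.5 and 54.1 CPM) exceed lean mouse 6 (51.7 CPM). Without mice 1 and 3 the log2 fold change was -1.22 (adjusted p = 0.00641). Ccr2 counts per Emr1 count had a median of 0.436 in obese control (0.286 to 0.735) and of 1.33 in lean control, and the summed macrophage markers of 921.5 to 1338 CPM in obese control overlapped those of lean control.

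Ccr7 was 10.8-fold higher in obese than in lean control IWAT with all libraries (log2 fold change 3.44, SE 0.93, edgeR adjusted p = 0.0153). Without obese mice 1 and 3 the log2 fold change was 0.25 (adjusted p = 0.820). For Cxcr4 the same step took a log2 fold change of 1.28 (SE 0.41, adjusted p = 0.0348) to 0.36 (adjusted p = 0.497). So the 2 higher calls were lost and 1 of 8 receptors, Ccr2, was called without these libraries, against 12.1% of all genes. Cxcr6, at 1.37 and not called with all libraries (SE 0.59, adjusted p = 0.117), was then at -0.24, and Cxcr3 went from 0.12 to -0.98 without being called in either. The Cxcr4 call was also lost in 6 of 22 fits that left out 1 library, namely lean control 0, 2, 3 or 6 or obese control 1 or 3. With the mouse as a random block in limma-voom, neither Ccr7 (2.23, adjusted p = 0.208) nor Cxcr4 (1.03, adjusted p = 0.10) was called. Ccr1 (0.067), Ccr3 (-0.25) and Cx3cr1 (-0.36) were not called.

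Between tumor-associated pads, 2 of 8 receptors were called, both higher in obese mice, against 24.7% of all genes called higher and 47.0% in either direction. Ccr1 was 2.52-fold higher (log2 fold change 1.33, SE 0.30, edgeR adjusted p = 0.00118), and the groups overlap because lean mouse 2 at 43.2 CPM was above obese mouse 4 at 40.5 CPM. Ccr2 was 2.01-fold higher (1.01, SE 0.25, adjusted p = 0.00258), with overlap from obese mouse 4 at 84.6 CPM. Ccr3 had a log2 fold change of 0.98 (adjusted p = 0.0784). No receptor was free of overlap between these groups, against 24.4% of all genes. The remaining 5 receptors had log2 fold changes from -0.14 to 0.59 and were not called. As the authors report larger tumors in obese than in lean mice, diet and tumor size cannot be told apart here.

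The difference of the tumor change between diets was tested as an interaction, and 1 of 8 receptors, Ccr2, was called, against 4.92% of all genes. The tumor change of Ccr2 was 4.00-fold larger in obese mice (log2 difference 2.00, SE 0.35, edgeR adjusted p = 0.0310). It combines the lower obese control level and the higher obese tumor-associated level given above. The authors report larger tumors in obese than in lean mice, so diet and tumor size cannot be told apart in this difference. The call was lost in 6 of 22 fits that left out 1 library (lean tumor-associated 0, 3 or 9, obese control 0 or 4, or obese tumor-associated 0), with log2 differences of 1.91 to 2.06 and adjusted p up to 0.0702. Without the 4 libraries above 40 CPM of B cell markers it was 2.12 (adjusted p = 0.0607). Ccr1 had a log2 difference of 1.26 (SE 0.42) and an adjusted p of 0.0650, which became 0.0238 with the mouse as a block and 0.0567 with the mouse as a random block in limma-voom. For Ccr7 the difference was -3.15 (adjusted p = 0.0892) with all libraries and 0.046 without obese control mice 1 and 3.

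The same question was put to each receptor over mice, as the difference between the 2 pads of a mouse in log2 CPM. For Ccr2 the tumor-associated pad was higher in 3 of 5 lean mice (mean 0.09, SD 0.455) and in 6 of 6 obese mice (mean 2.00, SD 0.625). The diets differed by 1.91 (two-sided exact permutation test over 462 divisions, p = 0.00216, the smallest possible). For Ccr1 it was higher in 5 of 5 lean mice (mean 1.35, SD 0.481) and in 6 of 6 obese mice, a difference of 1.26 (exact permutation p = 0.00216). For Ccr3 (0.89, exact permutation p = 0.0346) and Cxcr4 (-0.73, exact permutation p = 0.0498) the difference was no longer under 0.05 when certain single mice were left out. Ccr7, Cx3cr1, Cxcr3 and Cxcr6 had p from 0.214 to 0.667. These 8 p-values are not adjusted. Within a diet, the exact sign-flip test cannot go below 0.0625 with 5 lean pairs, and in obese mice Ccr1 and Ccr2 reached the smallest value of 0.0312.

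**Figure D4:**
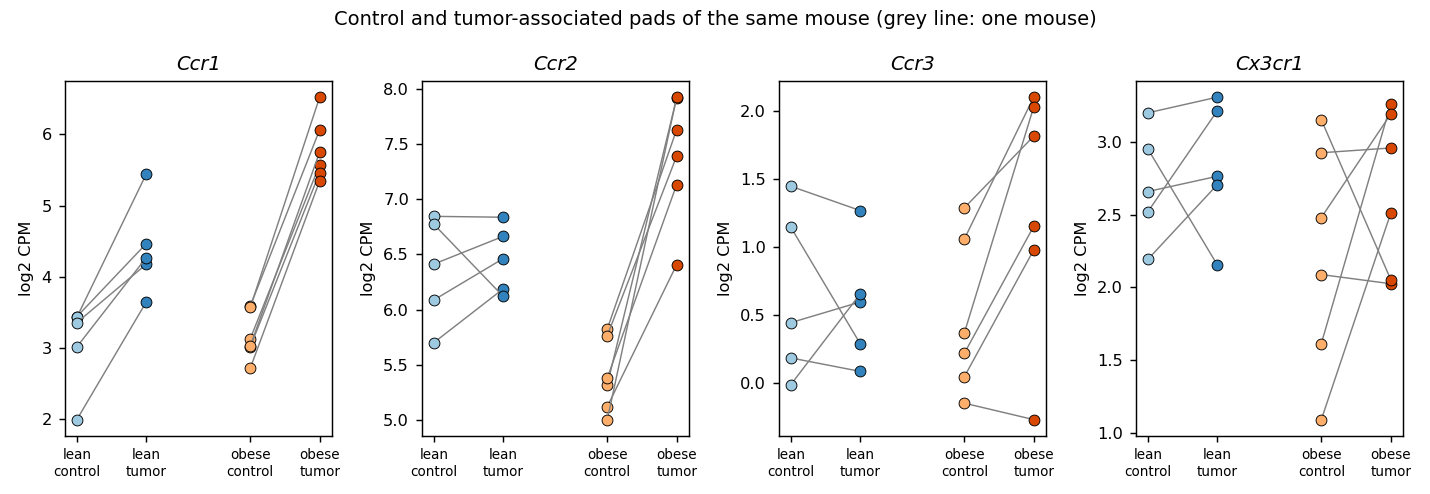
Log2 CPM of Ccr1, Ccr2, Ccr3 and Cx3cr1 in control and tumor-associated IWAT, with a grey line joining the pads of 1 mouse, for 5 lean and 6 obese mice. Lines rise for Ccr1 in all 11 mice and for Ccr2 in 6 of 6 obese and 3 of 5 lean mice.

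The ratio of Ccr1 to Ccr2 counts within a library had a median of 0.0916 in lean control (0.0714 to 0.147), 0.216 in lean tumor-associated (0.168 to 0.379), 0.185 in obese control (0.146 to 0.365) and 0.317 in obese tumor-associated IWAT (0.240 to 0.478). In lean mice the ranges of the 2 pads did not overlap. In obese mice they did. The ratio is of raw counts and is not corrected for gene length.

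The chemokines that bind the receptors were read from a list. Of 18 listed ligand genes 17 were tested, and Ccl21a was listed at 0 in every library. In lean mice 6 of 17 were called higher and none lower (also none lower at an unadjusted p under 0.05 or by DESeq2), with a median log2 fold change of 0.74 against 0.007 for all genes, of which 4.18% were called. In obese mice 10 were called higher and 3 lower, with a median of 1.86 against -0.015, where 26.8% of all genes were called higher and 54.5% in either direction. No ligand was called for a difference of the tumor change between diets by edgeR, and the adjusted p of the 17 ran from 0.0819 to 0.755. At an unadjusted p under 0.05 there were 2 with a larger and 3 with a smaller change in obese mice, and DESeq2 called 1 each way, Cxcl10 larger and Ccl19 smaller.

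The 3 Ccr2 ligands, Ccl2, Ccl7 and Ccl12, which recruit monocytes, rose in lean mice as well, where Ccr2 itself had a fold change near 1. Ccl2 was at 1.92 to 4.90 CPM in lean control and at 11.6 to 56.1 CPM in lean tumor-associated IWAT, a log2 fold change of 2.80 (SE 0.46, edgeR adjusted p = 0.00142). Ccl7 rose by 3.74 (SE 0.53, adjusted p = 0.000383) and Ccl12 by 2.73 (SE 0.52, adjusted p = 0.00442). In obese mice the log2 fold changes were 3.14 for Ccl2, 3.09 for Ccl7 and 3.28 for Ccl12. Ccl2 and Ccl7 were also called higher in obese than in lean control IWAT, by 1.99 (adjusted p = 0.00490) and 1.95 (adjusted p = 0.0144), in the comparison in which Ccr2 was lower.

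Of the Ccr1 ligands, Ccl6 and Ccl9, chemokines of mouse myeloid cells, were called higher in both diets. Ccl6 rose by 1.71 in lean mice (SE 0.41, edgeR adjusted p = 0.0225) and by 2.4 in obese mice (SE 0.39). Ccl9 rose by 1.44 in lean mice (SE 0.39, adjusted p = 0.0402, and no longer called without obese control mice 1 and 3) and by 1.91 in obese mice (SE 0.36). Ccl3 was called in obese mice, at 1.86 (adjusted p = 0.00667), and not in lean mice, at 0.69 (adjusted p = 0.830). The Ccr3 ligands Ccl11 and Ccl24 were called between the pads in neither diet.

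Ligands of Cxcr3, Cxcr4 and Ccr7 were called in obese mice only, which by itself does not show a difference between the diets. Cxcl9 had a log2 fold change of 1.15 (SE 0.40, edgeR adjusted p = 0.0188) and Cxcl10 of 2.92 (SE 0.50, adjusted p = 0.000129). Cxcl12, made by stromal cells and adipose progenitors, fell by 0.77 (SE 0.29, adjusted p = 0.0302) and Ccl19 fell by 2.89 (SE 1.03, adjusted p = 0.0229). Ccl19 was at 38.8 and 35.4 CPM in obese control mice 1 and 3 and at 0.307 to 0.744 CPM in the other 4. Without these 2 libraries its log2 fold change was 1.72 (adjusted p = 0.0648), Cxcl9 (adjusted p = 0.0563) and Cxcl12 (adjusted p = 0.0890) were not called, and Ccl5 and Cxcl16 were called higher, at 1.75 and 0.95. Both libraries left out were above the other 4 for Ccl5 (46.3 to 54.5 against 3.10 to 4.09 CPM). The same held for Cxcl16 (30.6 to 33.5 against 11.05 to 27.6 CPM). The removal by itself lowers the control level of these 2 ligands. The counts in obese mice were then 11 higher and 1 lower, where 26.7% of all genes were called higher. In lean mice they were 5 higher and none lower, where 4.53% of all genes were called.

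**Figure D5:**
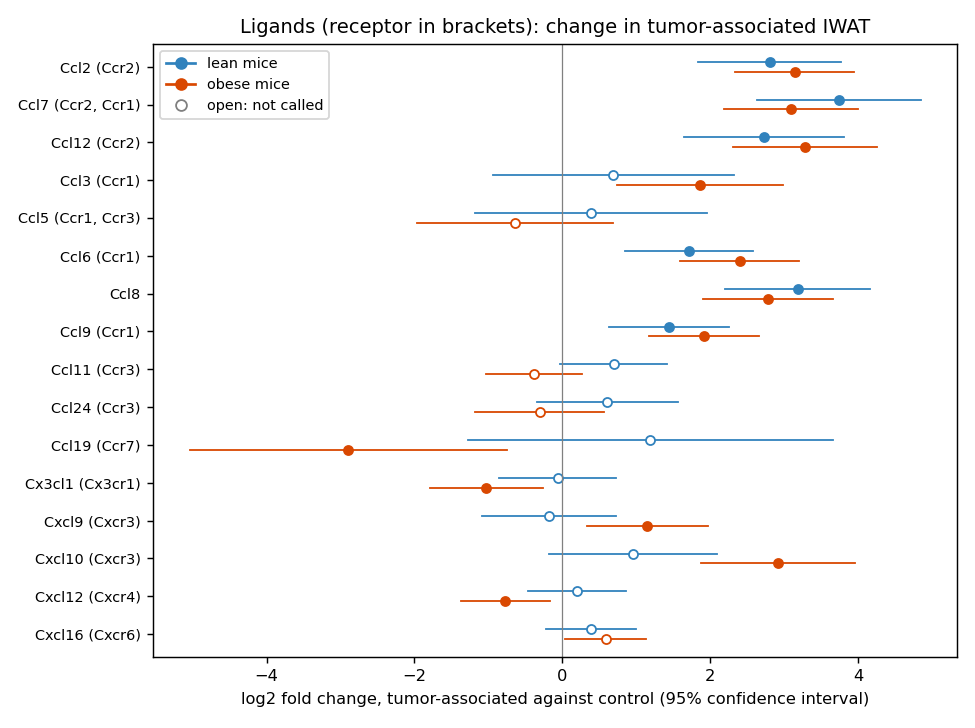
Log2 fold change with 95% confidence interval of 16 ligand genes in tumor-associated against control IWAT of lean (blue) and obese (red) mice, with the receptors they bind in brackets and open points where the adjusted p is not under 0.05. The Ccr2 ligands Ccl2, Ccl7 and Ccl12 lie between 2.73 and 3.74 in both diets, and Ccl19, Cx3cl1 and Cxcl12 are called lower in obese mice.

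Of 15 further chemokine and atypical receptors, 8 passed the low-count filter of edgeR. DESeq2, which has its own filter, tested 13 in the comparison of the obese pads. None was called between the pads of lean mice by edgeR or DESeq2, and 1 had an unadjusted p under 0.05. In obese mice edgeR called 1 lower, Ccrl1, an atypical receptor now named Ackr4 that takes up Ccl19 and Ccl21 without signalling. DESeq2 called 3, Ccr6, Ccbp2 and Ccrl1, all lower. Ccr6 was at 16.5 to 18.4 CPM in obese control mice 1 and 3 and at 0.143 to 0.372 CPM in the other 4. In obese tumor-associated IWAT it ran from 0.135 to 4.51 CPM. DESeq2 was not run without these 2 libraries. Ccrl1 fell by 1.74 between the obese pads (SE 0.52, edgeR adjusted p = 0.00779) and had a log2 fold change of -2.47 in obese against lean tumor-associated IWAT (adjusted p = 0.000833). Ccr9, a gut-homing receptor of lymphocytes, was called higher in obese control IWAT (3.40, adjusted p = 0.0278), with 11.8 and 9.996 CPM in mice 1 and 3 and at most 0.490 CPM in the other 4. Cxcr5, the B cell follicle receptor, had 38.4 and 33.7 CPM in the same 2 libraries and at most 0.868 CPM in the others and was not called (3.48, adjusted p = 0.0932). Both failed the low-count filter without those libraries, which left 6 receptors tested.

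Genes that carry the receptor signal inside the cell were read from a list of 18, all tested. In lean mice 1 was called between the pads, Gnai2, the most common Gi subunit of leukocytes (0.38, edgeR adjusted p = 0.0475). Without obese control mice 1 and 3, Gnai2 was at 0.36 and not called (adjusted p = 0.0734), and Arrb2 was called in its place, at 0.55 (adjusted p = 0.0452). In obese mice 3 were called higher and 2 lower, where 26.8% of all genes were called higher and 54.5% in either direction. Gnai3 (0.57) and Arrb2 (0.85), a beta-arrestin that switches receptors off, rose beside Gnai2, and Arrb1 (-0.72) and Adrbk2 (-0.46), a receptor kinase, fell. Without obese control mice 1 and 3 the counts were 13 higher and 2 lower, where 26.7% of all genes were called higher. Rac2 (1.94, edgeR adjusted p = 0.000241) and Vav1 (1.87, adjusted p = 4.14e-05) were among the added genes. Rac2 was at 108.6 to 116.2 CPM in the libraries left out and at 13.5 to 15.8 CPM in the other 4 obese control libraries. Vav1 was at 76.1 to 80.4 CPM against 12.4 to 17.1 CPM. The removal by itself lowers the control level of such genes, so the count cannot be read against the share of all genes. Rgs1, which shuts off Gi signals in leukocytes, was 2.60 higher on the log2 scale in obese than in lean control IWAT (adjusted p = 0.000119) and 2.39 higher without those 2 libraries. Its levels were 10.5 to 29.3 CPM in obese and 1.38 to 7.63 CPM in lean control IWAT, with no overlap.

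The genes whose residuals from the 4 group means were most like those of each receptor were found by Pearson's r over 22 libraries, which share depth and tissue composition. For Ccr2 they were Cd84 (r = 0.892), Plekhm3 and Prcp, and for Ccr1 they were Lilrb4 (r = 0.838), Il1rl1 and Osbpl8. For Cxcr6 they were Cd8a (r = 0.927), Cd8b1 and Parvg, for Ccr7 Parvg (r = 0.967), Cyfip2 and Il2rg, and for Cxcr3 Tlr11 (r = 0.896), Dock2 and Ankrd44. Cxcr4 was most like 2610018G03Rik (r = 0.941), Col6a4 and Faah, Cx3cr1 most like Trmt12 (r = 0.822), Soat1 and Mefv, and Ccr3 most like Igdcc4 (r = 0.832), Tnfsf12 and Chd9. Without obese control mice 1 and 3, r for Ccr7 with Parvg was 0.841, for Cxcr6 with Cd8a 0.790, and for Ccr2 with Cd84 0.875. These values are a description over libraries, with no test.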

How the data were processed

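RNA of control and tumor-associated IWAT was sequenced after ribosomal depletion. The authors trimmed reads with prinseq, aligned them to mm10 using STAR 2.4.0f and counted them with HTSeq. They deposited raw counts per gene symbol for 22 libraries, with 5 HTSeq total lines that were left out here. Between 38.5% and 48.8% of a library's reads fell outside annotated genes. The annotation and the strand setting are not given in the sources used here. Without a stated strand setting, reads of overlapping genes cannot be told apart.

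Counts were tested in R 4.3.3 with edgeR 4.0.16 (glmQLFit and glmQLFTest, TMM, default filter by group, Benjamini-Hochberg over 14458 of 23420 genes, threshold 0.05). All 4 groups shared one fit and its spread, without a block, in 5 comparisons. Log2 CPM used a prior count of 2. Each mouse was 1 replicate, and single values over mice had two-sided exact permutation tests. DESeq2 1.42.0 and limma 3.58.1 were alternatives. The fits were tested on simulated counts. All pairs within a group differed beyond counting noise, with a chi-square of at least 5.69 per degree of freedom. The precision is set by depth and by 5 or 6 mice a group, and Ccr3, Ccr7, Cxcr3 and Cxcr6 had under 10 counts in at least 1 library.

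The control and tumor-associated pads carry the same mouse number, which pairs them. Their deviations from the group means correlated in 5 of 5 lean pairs (r above 0.1, median 0.508) and in 4 of 6 obese pairs (median 0.168).

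All 8 receptors are named. Ligands, further receptors, signalling genes and cell type markers came from lists written for this work. The 3 genes most like each receptor were taken by Pearson's r of log2 CPM residuals among genes with a mean of at least 2 CPM. The receptors and lists were chosen with earlier results of these data known. A B cell marker of the list is not reported here. The fits without the libraries rich in B cell markers, and the limit of 40 CPM for them, were chosen after seeing the data. Positions came from GENCODE M21 and promoters from RefSeq.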

Additional observations from a re-analysis of the deposited data

Results flagged for a closer look

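The tumor change of Ccr2 differed between the diets by the interaction test in edgeR, with an obese minus lean log2 difference of 2.00 (adjusted p = 0.0310). The log2 fold change was 0.055 for lean mice and 2.06 for obese mice. The tumor-associated pad was higher in 3 of 5 lean and in 6 of 6 obese mice. Diet and tumor size cannot be told apart in this difference, as the authors report larger tumors in obese mice.

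Cxcr3 in lean tumor-associated IWAT had 1 library far from the others. Mouse 6, at 1.80 CPM, lay below the other 4 libraries of 3.67 to 4.66 CPM, and its gap to the nearest of them was 0.74 of the whole range in log2 CPM. This was the only such library among 32 combinations of receptor and group, and chance gives about 1 in 20. The control pad of the same mouse also had the lowest Cxcr3 of its group, at 0.880 CPM.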

How the results depend on the processing

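Of 1274 values for single receptors under all alternatives, 1185 kept their direction and their side of the threshold, 35 lost a call, 17 gained one and 37 changed direction. Ccr1 and Ccr2 in obese tumor-associated against control IWAT, Ccr2 in obese against lean control IWAT, and both in obese against lean tumor-associated IWAT kept direction and call in every alternative run. In lean mice 1 receptor was called, 2 under each of the 3 exclusions of libraries rich in B cell markers, and 0 to 1 with single libraries left out. In obese mice 3 were called between the pads, 6 without obese control mice 1 and 3, and 5 without the 4 libraries above 40 CPM of B cell markers, with 2 to 4 in the fits that left out 1 library. In obese against lean control IWAT 3 were called, and 1 when the groups were fitted alone, with the mouse as a random block in limma-voom and under each of the 3 exclusions. For the obese minus lean difference 1 was called, 3 by DESeq2, 2 with the mouse as a block, 0 without the 4 libraries, and 0 to 2 with single libraries left out. With the mouse as a fixed or a random block, no other count of called receptors moved by over 1.5 times. The fixed block added the calls of Cxcr4 between the obese pads and of Ccr1 in the obese minus lean difference, and the random block lost those of Ccr3 between the obese pads (0.93) and of Ccr7 and Cxcr4 between control pads. The number of genes called for that difference was 711, and it was 18 without a low-count filter, 2364 by DESeq2, 1309 in limma-voom with the mouse as a random block, 4951 without both pads of obese mice 1 and 3 and 4 without the 4 libraries, with 1 to 3568 when single libraries were left out. In lean mice 605 genes were called between the pads, 913 by DESeq2, 1437 with the groups alone and 183 to 952 with single libraries left out. Between control pads 2468 were called, and 1268 without the 4 libraries.

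These values changed direction. In obese tumor-associated against control IWAT, Ccr7 was 0.005 in limma-voom with the random block, 1.73 without obese control mice 1 and 3, 1.55 without both pads of mice 1 and 3 and 1.47 without the 4 libraries. Cxcr6 was 0.65, 0.50 and 0.38 under the same 3 exclusions, and Cxcr4 was 0.12 under the first. In obese against lean control IWAT, Cxcr3 was -0.034 in limma-voom with the random block and -0.98, -0.96 and -0.51 under the 3 exclusions, and Cxcr6 was -0.24, -0.23 and -0.15. Ccr1 there was -0.003 with upper-quartile normalization. In obese against lean tumor-associated IWAT without both pads of mice 1 and 3, Cxcr3 was -0.058 and Cxcr4 -0.067. For the obese minus lean difference, Ccr7 was 0.046 under the first exclusion and Cxcr6 was 0.83, 0.67 and 0.47 under the 3. With single libraries or mice left out, values not called spanned 0 for Ccr2 (-0.080 to 0.18), Ccr3 (-0.43 to 0.16) and Cxcr3 (-0.093 to 0.61) in lean mice, for Ccr1 (-0.12 to 0.16), Ccr3 (-0.52 to 0.066) and Cxcr3 (-0.33 to 0.59) between control pads, for Cxcr3 in the obese minus lean difference (-0.11 to 0.81), and for Cxcr3 (-0.029 to 0.39, with -0.018 without obese mouse 0) and Cxcr6 (-0.70 to 0.14) in that difference over mice. Ccr3, Ccr7, Cxcr3 and Cxcr6 have no value with at least 10 counts in every library. The cause of these changes was not tested beyond the removal of the libraries named.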
